A study of Mus musculus with 23 samples.

Results

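Evx1 is a homeobox gene and Evx1os is the transcript made from the opposite strand at the same place. Both were followed over 23 Affymetrix mouse expression arrays, as 2 of the 18194 genes that a probe set of the array names alone. Each is read by 1 probe set, and both were among the 13256 genes kept, whose signal lay above the array's median on 3 or more arrays. The pair was chosen from its measured values. Evx1 was already known to differ with BMP4 in wild type cells, between genotypes with BMP4, and in a group of knockout arrays. Its antisense transcript was paired with it for moving together with it. The levels and differences of both, and their likeness, are therefore given as a description, with no test.

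The arrays measured RNA of epiblast-like cells of the mouse, which model the epiblast before gastrulation in culture. The cells were made from male C57BL/6 embryonic stem cells with intact Wnt3 (Wnt3+/+, here WT) or without it (Wnt3-/-, here KO). All cells of both genotypes carried the BV transgene, a membrane-targeted Venus reporter under Blimp1 regulatory elements, which reads germ cell specification. They were first grown in medium with 2 kinase inhibitors and LIF, then turned into epiblast-like cells with Activin A and bFGF, and from 0 h cultured as floating aggregates with serum replacement and LIF. The WT cells received no cytokine, BMP4 at 500 ng/ml or WNT3A at 50 ng/ml. The KO cells received no cytokine, BMP4, WNT3A, or BMP4 and WNT3A together, at the same doses. Arrays were taken at 12, 24 and 36 h of each of these 7 conditions, and at 0 h of each genotype, with 1 array at each point and no replicate. The labels do not say whether more than 1 line of a genotype was used, so genotype and line cannot be told apart.

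For 6 KO arrays the labels conflict. The arrays titled WNT3A have an array name that lists both cytokines, and those titled BMP4+WNT3A have a name that lists WNT3A alone, at all 3 times. Groups follow the titles here and are called by them. The KO arrays titled WNT3A read 5480, 7591 and 9345 for Id1, a gene that BMP signalling switches on directly, over 12, 24 and 36 h, and those titled BMP4+WNT3A read 186, 256 and 1323. With BMP4 alone KO cells read 5557, 8192 and 10156, and with WNT3A alone WT cells read 189, 350 and 2077, so Id1 went against the titles. Every value of the 2 groups is therefore also to be read with the names exchanged. Wnt3 itself, the deleted gene, read 10.4 in WT and 16.2 in KO cells at 0 h, reached 146 in WT cells with BMP4 at 36 h and lay between 11.2 and 27.9 on all KO arrays. The sources used here do not give the deleted part of the gene, so its probe set is a limited check of the genotype.

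Array medians lay between 36.8 and 41.4 units of signal, and precision is limited by how few arrays there are. Genes of the epiblast-like state were present at 0 h, with Pou5f1 at 8780 in WT and 9027 in KO cells, Otx2 at 553 and 541, and Fgf5 at 792 and 690. Of 7 primitive endoderm markers, Dab2 and Sox17 exceeded the array median on all 23 arrays, Gata4 on 22, Pdgfra on 6 and Sox7 on 1, while Afp and Ttr stayed below it throughout. Of 4 feeder fibroblast markers, Col1a2 and Thy1 exceeded it on 23 arrays and Dcn on 14, with Dcn at 223 in WT and 355 in KO cells at 0 h, while Col1a1 stayed between 1.00 and 18.0. Of 6 trophoblast markers, Tfap2a, Krt7 and Eomes exceeded it on 23 arrays and Elf5 stayed between 3.61 and 19.0. Of 4 neural markers, Nes exceeded it on 23 arrays, Pax6 on 12, Sox1 on 10 and Zic1 on none. The part of other cell types in the results was not tested. Gata3 and Hand1, which serve trophoblast and posterior mesoderm alike, exceeded the array median on 4 arrays each, and values that move with Evx1 are given beside it below. The RNA was amplified before labelling, and the ratio of the 3' to the 5' control probe sets of Gapdh was high on 3 arrays: 4.03 on the 24 h array of WT with WNT3A, 2.68 on the 24 h array of untreated KO and 2.30 on the 36 h array of untreated WT, against 1.09 to 1.71 elsewhere.

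Evx1 encodes a transcription factor of the even-skipped family, whose founder is a segmentation gene of the fly. In the mouse embryo it is switched on in the proximal epiblast and the posterior primitive streak, where BMP and WNT signals are high, and later in the tail bud and in interneurons of the spinal cord. Evx1os is a long noncoding RNA. Antisense transcripts of developmental genes often start near the promoter of their partner and can be made in the same cells. Evx1 lies beside the 5' end of the HoxA cluster, just past Hoxa13.

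The promoters of the pair, windows of 300 bases around each start, are shown because the 2 starts are close and face each other. In the RefSeq annotation of GRCm38.p6, Evx1 starts at chromosome 6, position 52313498, on the plus strand, and Evx1os at position 52314832 on the minus strand, 1334 bases downstream of the Evx1 start. The transcripts thus run toward each other from these starts. The Evx1 window is chr6:52313248-52313547 on the plus strand and the Evx1os window is chr6:52314783-52315082 on the minus strand, and each is written 5' to 3' along its own gene. Capitals mark the letters of motifs that were searched for.
Evx1: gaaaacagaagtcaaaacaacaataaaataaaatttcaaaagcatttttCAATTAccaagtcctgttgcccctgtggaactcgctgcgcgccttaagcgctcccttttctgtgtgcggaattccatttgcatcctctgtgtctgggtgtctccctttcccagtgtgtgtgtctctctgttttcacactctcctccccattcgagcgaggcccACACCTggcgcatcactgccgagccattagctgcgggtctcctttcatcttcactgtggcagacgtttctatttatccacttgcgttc
Evx1os: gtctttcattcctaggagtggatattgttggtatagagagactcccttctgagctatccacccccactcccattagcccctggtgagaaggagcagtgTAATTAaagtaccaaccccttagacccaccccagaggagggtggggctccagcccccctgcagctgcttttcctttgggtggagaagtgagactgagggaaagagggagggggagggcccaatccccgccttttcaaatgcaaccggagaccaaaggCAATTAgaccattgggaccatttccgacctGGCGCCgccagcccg
Motifs were searched on both strands. The Evx1 window holds the T-box core AGGTGT once, on its reverse strand. In the printed window it reads ACACCT with its leftmost base at -38, where 1 is the start and there is no 0. That core is present in 13.7% of 32851 RefSeq promoters of the same length. The homeobox core CAATTA stands once in each window, at -201 for Evx1 and at 6 for Evx1os, and in 8.0% of all promoters. The Evx1os window also holds the homeobox motif TAATTA at -152, which is in 5.29% of promoters, and the SMAD motif GGCGCC at 36, which is in 11.9%. Neither window holds the longer T-box motif AGGTGTGA, the TCF/LEF letters CTTTGA or CTTTGT, the SMAD palindrome GTCTAGAC or TATAAA, which are present in 1.28%, 16%, 18.7%, 0.213% and 13.6% of promoters. The motif AGGTGTGA contains AGGTGT, and the other motifs can overlap each other. The GC content was 48.7% for the Evx1 window and 56.3% for the Evx1os window. These matches describe letters in 2 short windows and show no binding.

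At 0 h both transcripts were dim. Evx1 read 22 in WT and 20.5 in KO cells, and Evx1os read 6.87 and 5.31, all below the median of their arrays. Without cytokine, WT cells read 22.9, 25.6 and 170 for Evx1 at 12, 24 and 36 h, and 10.6, 10.2 and 44.9 for Evx1os. Both thus stayed near their starting level until 24 h and were higher at 36 h, by 7.41-fold for Evx1 and 4.26-fold for Evx1os against 12 h. Wnt3 in the same arrays read 11.5, 17 and 83.3. The array at 36 h is one of the 3 with a high Gapdh ratio. There are no detection calls in the files, so dim signal cannot be told apart from absence, and folds against dim values are ratios of deposited signal only.

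With BMP4, WT cells read 685, 1499 and 4040 for Evx1, the highest level of all conditions at each time. Evx1os read 118, 471 and 1520 in the same arrays. Every BMP4 array of WT cells stood above every WT array without cytokine for both transcripts. The share of all genes whose groups stood apart in this way is not given, here or for the groups compared below. The ratio of BMP4 to no cytokine at the same time was 29.9, 58.5 and 23.8 for Evx1 and 11.2, 46.2 and 33.8 for Evx1os. Averaged over the 3 times as log2(signal + 16), the difference was 4.67 ± 0.59 for Evx1 and 3.77 ± 0.56 for Evx1os (standard error of a limma fit of 21 arrays, n = 3 times per condition). This scale understates differences of dim genes, and the 3 times stand in for replicates. Gata3 read 33.8, 42.5 and 592 and Hand1 30.9, 49.9 and 1261 in these arrays, and their part in the result was not tested. In a pool of cells, more cells with a transcript and more transcript per cell cannot be told apart.

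With WNT3A, WT cells read 72.5, 229 and 1418 for Evx1 and 23.1, 35.0 and 399 for Evx1os. The ratio to no cytokine was 3.16, 8.94 and 8.34 for Evx1 and 2.19, 3.43 and 8.88 for Evx1os. Both stood above the untreated array at each time, although WNT3A at 12 h lay below the untreated array of 36 h. For Evx1os the WNT3A array of 24 h did so too, at 35.0 against 44.9. The mean difference was 2.22 ± 0.59 for Evx1 and 1.40 ± 0.56 for Evx1os, and with the 36 h arrays left out the latter was 0.78. BMP4 arrays exceeded WNT3A arrays of the same time by 9.45-fold, 6.54-fold and 2.85-fold for Evx1 and by 5.10-fold, 13.5-fold and 3.81-fold for Evx1os. For Evx1 the gap between the 2 cytokines was thus smallest at 36 h, and Evx1os had its widest gap at 24 h. Both differences share the untreated WT arrays, and the doses of the 2 proteins differ. Of all arrays, that of WNT3A at 24 h had the highest ratio of the Gapdh probe sets (4.03). With the 3 arrays of highest ratio left out of the fit, the difference of WNT3A from no cytokine was 2.33 for Evx1 and 1.49 for Evx1os.

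In KO cells the pair stayed dim without cytokine and with BMP4. Evx1 read 17.9, 16.7 and 18.5 without cytokine and 18.6, 19.3 and 15.9 with BMP4. Evx1os read 4.86, 10.4 and 8.0 without cytokine and 6.41, 6.68 and 5.46 with BMP4. The 2 groups overlap for both transcripts, and all 6 arrays lie below the array median. The mean difference of BMP4 from no cytokine was -0.00 ± 0.59 for Evx1 and -0.09 ± 0.56 for Evx1os. Id1 rose by 5.31 ± 0.43 with BMP4 in KO cells (limma, adjusted p = 7.70e-06) and by 5.14 ± 0.43 in WT cells (adjusted p = 6.84e-06), so the BMP target responded in both genotypes.

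Set against each other with BMP4, WT cells exceeded KO cells by 36.8-fold, 77.7-fold and 254-fold for Evx1 and by 18.4-fold, 70.5-fold and 278-fold for Evx1os at 12, 24 and 36 h. No array of the 2 groups overlapped. The mean difference of KO from WT was -5.65 ± 0.59 for Evx1 and -4.42 ± 0.56 for Evx1os. Without cytokine it was -0.98 ± 0.59 and -0.55 ± 0.56. At 36 h WT cells exceeded KO cells by 9.19-fold for Evx1 and 5.62-fold for Evx1os without cytokine, and with that time left out the mean differences were -0.29 and -0.17. With 24 h left out, that of Evx1os was -0.83, and with the 3 arrays of high Gapdh ratio left out it was -0.95. The BMP4 response in KO less that in WT was -4.67 ± 0.83 for Evx1 and -3.87 ± 0.79 for Evx1os.

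**Figure D1:**
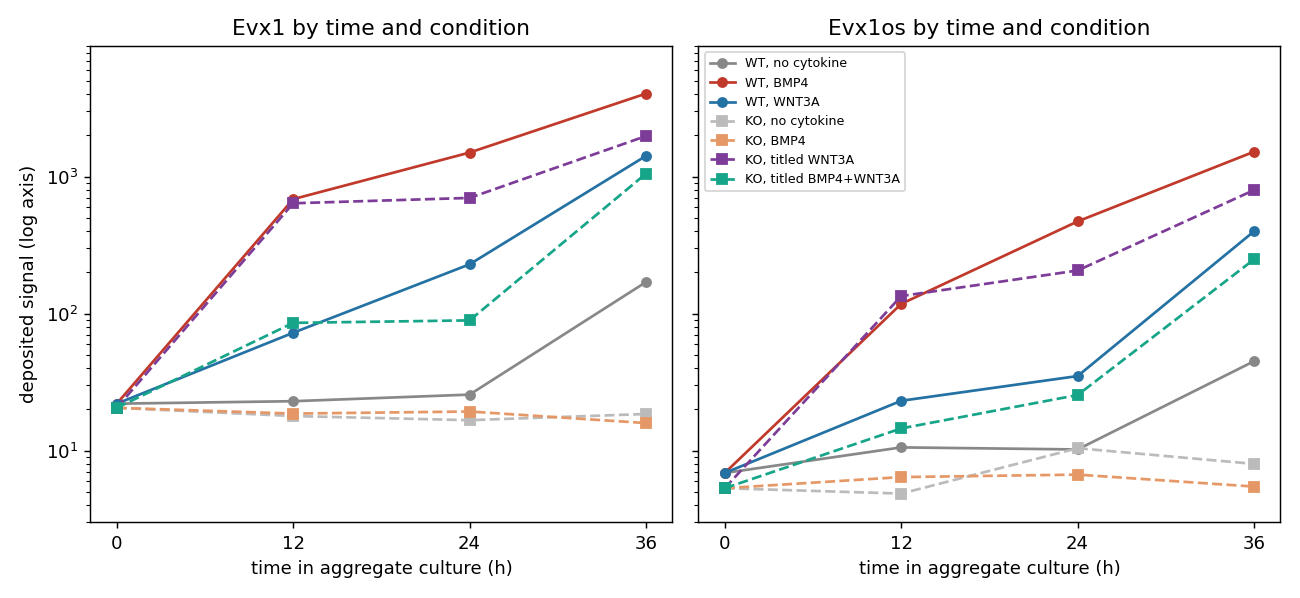
Deposited signal on a log axis against time in aggregate culture (h) for Evx1 on the left and Evx1os on the right, 1 point per array, with the 0 h array of each genotype as the shared start of its lines. Circles and solid lines are WT and squares and dashed lines KO; the WT BMP4 line ends at 4040 for Evx1 and 1520 for Evx1os, while KO cells without cytokine or with BMP4 stay at or below 20.5 and 10.4.

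The KO arrays titled WNT3A read 639, 699 and 1978 for Evx1 and 134, 206 and 798 for Evx1os. The ratio to KO cells without cytokine was 35.8, 41.9 and 107 for Evx1 and 27.7, 19.8 and 99.7 for Evx1os. The mean difference was 4.84 ± 0.59 for Evx1 and 3.65 ± 0.56 for Evx1os. At 12 h these arrays stood level with WT cells with BMP4, which exceeded them by 1.07-fold for Evx1, while Evx1os read 1.14-fold higher in the KO array. At 24 and 36 h WT cells with BMP4 exceeded them by 2.14-fold and 2.04-fold for Evx1 and by 2.28-fold and 1.91-fold for Evx1os. In these arrays Gata3 read 10.1, 14.2 and 141 and Hand1 26.5, 26.5 and 385.

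The KO arrays titled BMP4+WNT3A read 85.6, 89.3 and 1053 for Evx1 and 14.5, 25.5 and 249 for Evx1os. Their ratio to KO cells without cytokine was 4.79, 5.35 and 56.9 for Evx1 and 2.99, 2.45 and 31.1 for Evx1os. The mean difference was 2.68 ± 0.59 for Evx1 and 1.5 ± 0.56 for Evx1os, and with the 36 h arrays left out they were 1.62 and 0.61. With the names exchanged, the values of these arrays belong to WNT3A alone and those of the paragraph before to both cytokines. All 6 arrays of the 2 groups stood above all 6 of KO cells without cytokine or with BMP4, whichever name is right, for both transcripts. The comparisons in KO cells share the untreated KO arrays.

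Ordered by mean level over the 3 times, the 7 conditions stood in the same order for both transcripts: WT with BMP4, KO titled WNT3A, WT with WNT3A, KO titled BMP4+WNT3A, WT without cytokine, KO without cytokine and KO with BMP4. For Evx1, WT with WNT3A and KO titled BMP4+WNT3A differed by 0.52 log2 units, less than the standard deviation of 0.74 of that gap over the 3 times. The gap of 0.98 between WT and KO without cytokine was also within its standard deviation of 1.19, and so was the gap of 0.00 between the last 2 conditions. For Evx1os the last 2 gaps, of 0.55 and 0.09, lay within their standard deviations of 0.68 and 0.19. The top gap, between WT with BMP4 and KO titled WNT3A, was 0.81 with a standard deviation of 0.50 for Evx1 and 0.67 with one of 0.64 for Evx1os.

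**Figure D2:**
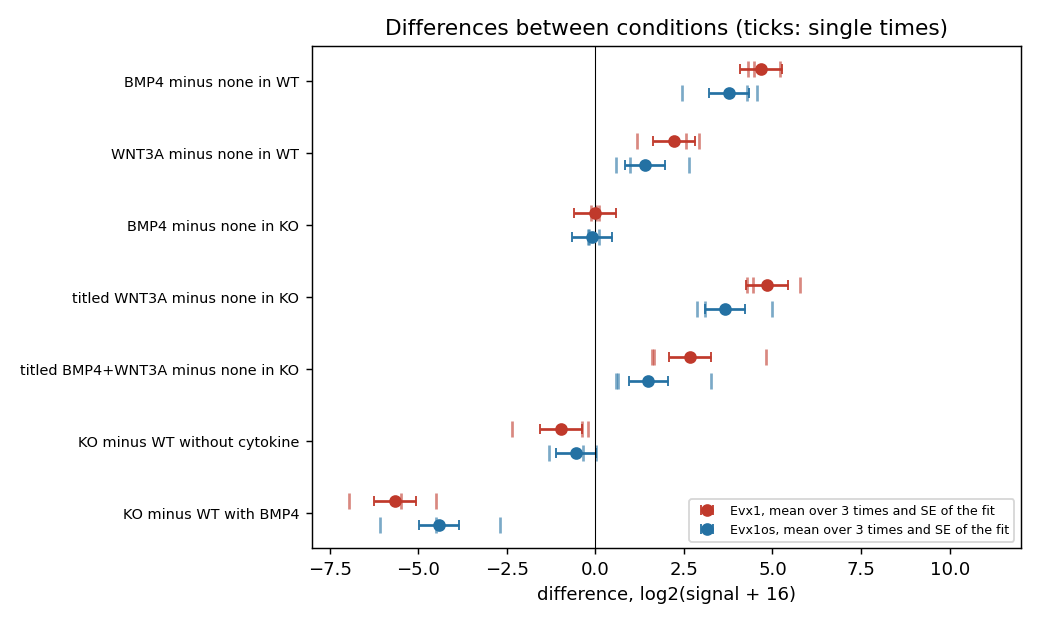
Differences between conditions in log2(signal + 16) for Evx1 in red and Evx1os in blue. Circles with bars are the mean over 3 times and the standard error of the fit, and ticks are the single times; for BMP4 in WT the means are 4.67 and 3.77, and for BMP4 in KO -0.00 and -0.09.

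The pair moved together over the arrays. Pearson's r of Evx1 with Evx1os was 0.977 and Spearman's rho 0.948 over 23 arrays. Within one time, over the 7 conditions, r was 0.986 at 12 h, 0.968 at 24 h and 0.987 at 36 h, and at 36 h the order of the conditions was identical for both (rho = 1). Without the 6 KO arrays of conflicting labels r was 0.979 over 17 arrays. After the additive effects of condition and time were taken off, r was 0.854 over 21 arrays. With 1 array per condition and time, what remains includes how the conditions differed in their course over time. Shared deviations of single arrays cannot be told apart from that. These correlations carry no p, since the pair was chosen for moving together and the arrays share cells, cultures and times. The sources used here do not give where the Evx1os probes lie, and whether they can read RNA of Evx1 was not tested.

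The size of the differences was not the same for both. In WT cells with BMP4, Evx1 was 5.90-fold and Evx1os 12.9-fold higher at 36 h than at 12 h. Likewise in the KO arrays titled WNT3A, Evx1 was 3.10-fold and Evx1os 5.94-fold higher at 36 h. With WNT3A in WT cells the ratios were close, 19.6-fold and 17.3-fold, and they were 12.3-fold and 17.1-fold in the KO arrays titled BMP4+WNT3A. In the conditions with the highest level at 12 h the antisense transcript thus covered a wider range afterwards. Evx1 exceeded the median of its array on 13 arrays and Evx1os on 9. Levels of the 2 probe sets were not set against each other, since probe sets differ in how strongly they read.

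**Figure D3:**
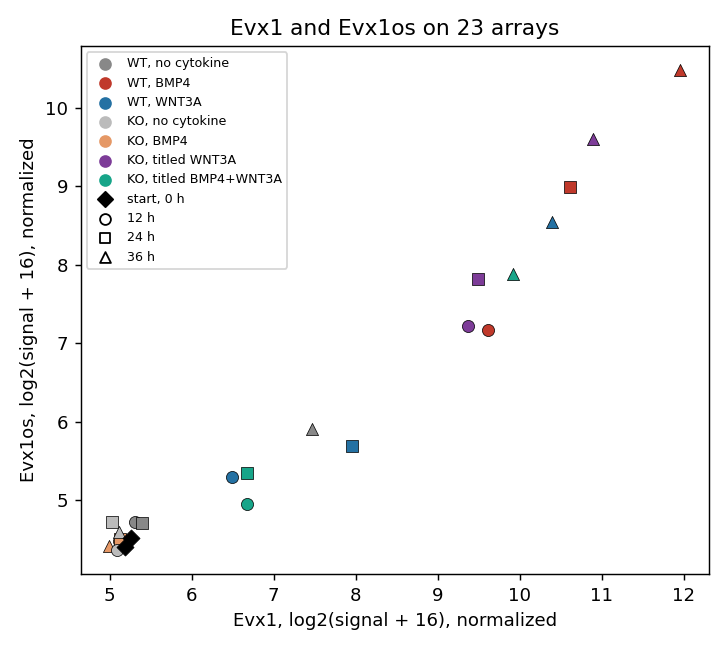
Evx1 against Evx1os on 23 arrays, both as normalized log2(signal + 16), with condition by colour and time by shape. The points form 1 rising band (r = 0.977), with WT BMP4 at 36 h at its upper end and the 0 h and untreated KO arrays at its lower end.

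Among 13255 other genes kept, Evx1os was the one most like Evx1 over the 23 arrays, and Evx1 was the one most like Evx1os. The next most like Evx1 was Dner, a transmembrane ligand of Notch receptors, with r = 0.921 and signal between 36.5 and 117. Pdgfa, a growth factor, followed with r = 0.912 between 60.5 and 1024, then Tmem185a (0.911), Man1c1 (0.908), Eola1 (0.903), Cyb5r3 (0.903), Shisa5 (0.901), the protocadherin gene Pcdh7 (0.898) and the lipoxygenase gene Alox15 (0.896). Of these 10 genes, 6 were also among the 10 most like Evx1os, which were joined by Msx1 (0.914), Relt (0.903) and Cpz (0.891). Msx1, a homeobox gene of the BMP response, read 488, 820 and 2369 with BMP4 in WT cells and 103, 149 and 292 in KO cells. Pcdh7 read 33.1, 77.2 and 592 with BMP4 in WT cells and 5.43, 4.26 and 7.41 in KO cells. The genes of the most opposed pattern were Pou3f1 (-0.953), a transcription factor of the epiblast, with signal from 153 to 4608, then Taf4 (-0.942), Slc7a3 (-0.934), Zic5 (-0.921) and Slc39a14 (-0.919). These likenesses rest on arrays that share cells and times. The pair was chosen for moving together on these same arrays, so its place in this ranking is only a description.

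Genes were paired by name with antisense transcripts annotated as long noncoding RNA on the same chromosome. This gave 87 pairs with a probe set for each partner, the Evx1 pair included. A further 1 was left out because a partner had the same value on all arrays. The median r of these pairs was 0.05, 11 pairs exceeded 0.5 and 39 lay below 0. Of the 27 pairs in which both partners were kept, the median was 0.22 and 8 exceeded 0.5. The Evx1 pair, which was chosen for moving together on these arrays, stood first. Lhx1 and Lhx1os, a pair at a homeobox gene of the streak and node, followed with r = 0.946 and rho = 0.719, then Nphs1 with Nphs1os (0.839), Gad1 with Gad1os (0.698) and Hnf4a with Hnf4aos (0.683). Only the first 2 pairs exceeded 0.9. Their antisense transcripts also varied most over the arrays. The standard deviations of gene and antisense transcript were 2.38 and 1.92 log2 units for the Evx1 pair and 1.56 and 0.99 for the Lhx1 pair. The next widest antisense transcript, Gad1os, had 0.482. How far the order of the pairs follows from these ranges was not tested.

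**Figure D4:**
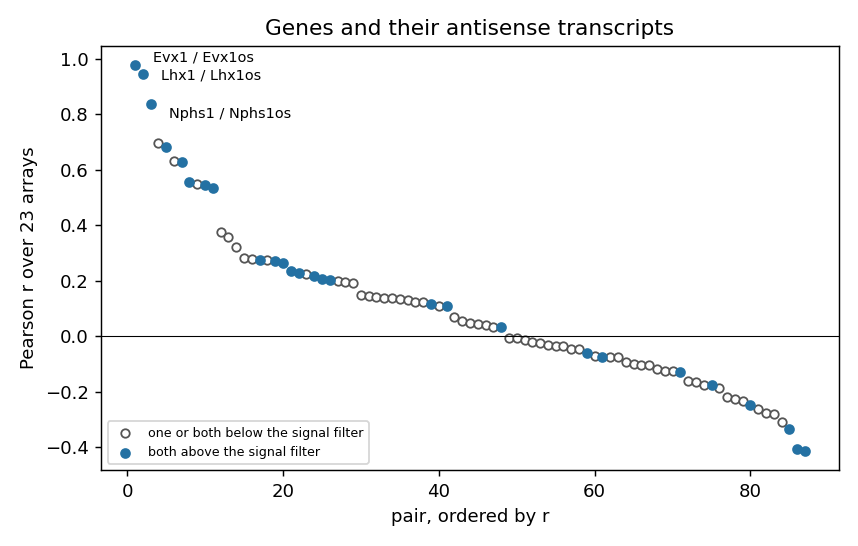
Pearson's r over 23 arrays for 87 pairs of a gene and its antisense transcript, ordered by r. Filled points mark pairs in which both partners were kept by the signal filter. The Evx1 pair (0.977) and the Lhx1 pair (0.946) stand above the rest, and the median of all pairs is 0.05.

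The genes beside the pair did not share its range. Of 19 genes of the HoxA cluster and its flanks, 12 were tested. Hibadh, an enzyme gene on the far side of Evx1, read between 904 and 2091 and had r = 0.231 with Evx1. Hoxa13, the nearest Hox gene, read between 19.3 and 77.7 with r = 0.104. The highest correlations of the cluster with Evx1 were those of Hoxa5 (0.630) and Hoxa2 (0.561), an anterior Hox gene that read 86.8 with BMP4 and 272 with WNT3A in WT cells at 36 h. Evx2, the other mouse gene of the even-skipped family, stayed between 133 and 189.

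**Figure D5:**
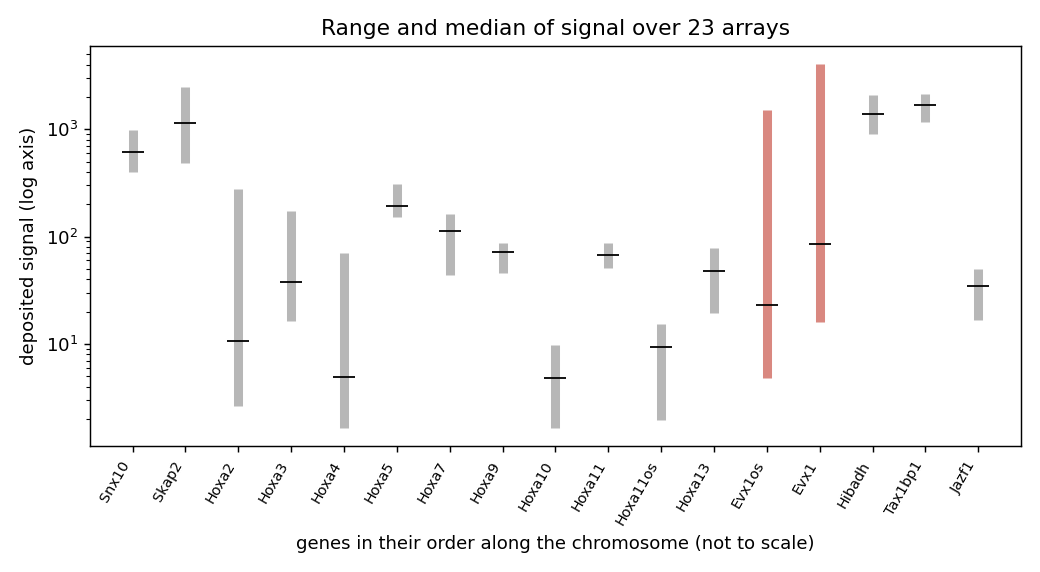
Range (bar) and median (tick) of deposited signal over 23 arrays on a log axis, for the genes around Evx1 in their order along the chromosome, not to scale. Evx1 (15.9 to 4040) and Evx1os (4.86 to 1520), in red, have the widest bars, and Hibadh beside them reads 904 to 2091.

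Calls over the whole array set the scale for the genes tested around the pair (limma, Benjamini-Hochberg adjusted p under 0.05 over 13256 genes). With BMP4 in WT cells 1.44% of genes were higher and 1.98% lower. With WNT3A in WT cells 0.256% were higher and 0.226% lower, and with BMP4 in KO cells 0.241% and 0.317%. In the KO arrays titled WNT3A 3.99% were higher and 5.51% lower than without cytokine, and in those titled BMP4+WNT3A 2.98% and 3.79%. Between genotypes with BMP4, 4.28% were higher and 2.95% lower in KO, and without cytokine 0.0302% and 0.0679%. For the BMP4 response in KO less that in WT, limma called 0% in either direction, the pair included, with 781 of 13256 genes at an unadjusted p under 0.05. The median difference of all genes was near 0 in each comparison. The gene lists below were chosen with earlier results of these data known, so their counts are a description. For the other comparisons the share of all genes at an unadjusted p under 0.05 is not given here. Counts of list genes at that cut are therefore not shown to exceed it.

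Of the 12 tested genes of the HoxA cluster and its flanks none passed with BMP4 in WT cells, with WNT3A in WT cells or between genotypes with BMP4, where limma gave 1, 3 and 1 at an unadjusted p under 0.05. With BMP4 in KO cells 1 passed, Hoxa13, which rose by 0.85 ± 0.18 (adjusted p = 0.0402). The arrays titled WNT3A gave 1, again Hoxa13, at 0.60 ± 0.18 (adjusted p = 0.0428). Those titled BMP4+WNT3A gave 2, Hoxa2 at 1.87 ± 0.44 (adjusted p = 0.0177) and Hoxa13 at 0.64 ± 0.18 (adjusted p = 0.0390). Hoxa13 read 36.3, 22.8 and 26.0 without cytokine in KO cells and 63.6, 67.6 and 66.3 with BMP4, where the pair stayed dim.

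BMP-SMAD targets had 12 tested genes. In WT cells 10 rose with BMP4 and 2 did not pass, with a median of 2.30, led by Id1, Msx2 (4.21 ± 0.55) and Msx1 (3.88 ± 0.33). In KO cells 6 rose with BMP4, with a median of 1.53, led by Id1, Id2 (3.74 ± 0.26) and Id4 (3.03 ± 0.37). Between genotypes with BMP4 2 passed, Msx1 and Msx2, each lower in KO by the same rounded value of -2.55. Id1 differed by -0.04 between genotypes (adjusted p = 0.978). In the BMP4 response of KO less WT none of the 12 passed by limma and 2 had an unadjusted p under 0.05, with Msx1 at -2.30 ± 0.47 (adjusted p = 0.144). Of these 12 genes 7 rose in the KO arrays titled WNT3A. In those titled BMP4+WNT3A none rose and 1 fell, Id2, by 1.05 ± 0.26. With WNT3A in WT cells none passed, and 5 had an unadjusted p under 0.05.

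The WNT-beta-catenin targets had 15 tested genes. Between genotypes with BMP4 9 were lower in KO and none higher, led by Sp5 (-5.52 ± 0.85, adjusted p = 0.00103), Tnfrsf19 (-4.99 ± 0.65) and Wnt8a (-4.72 ± 0.60). For Axin2, a feedback inhibitor of the pathway, the difference of KO from WT was -3.49 ± 0.48 (adjusted p = 0.000408). Averaged over the 3 times, part of these gaps was also there without cytokine. The differences of KO from WT were then -2.88 ± 0.85 for Sp5, -3.30 ± 0.65 for Tnfrsf19 and -3.20 ± 0.60 for Wnt8a. They were not even over time. Without cytokine at 12 h, Sp5 read 27.5 in WT and 27.3 in KO cells, Tnfrsf19 47.8 and 31.6, and Wnt8a 129 and 71.5. With BMP4 at 12 h the same genes read 1024 and 31.1, 787 and 23.9, and 949 and 49.9. None of the 15 passed by limma without cytokine, where 7 had an unadjusted p under 0.05. In the BMP4 response of KO less WT none passed either, with 4 at an unadjusted p under 0.05 and Sp5 at -2.64 ± 1.21 (adjusted p = 0.834). Sp5 read 1024, 1924 and 2385 with BMP4 in WT cells and 31.1, 20.1 and 15.9 in KO cells. Without cytokine it read 27.5, 181 and 3541 in WT cells, so unlike Evx1 it stood higher at 36 h without BMP4 than with it. In the KO arrays titled WNT3A 5 rose and in those titled BMP4+WNT3A 8 rose, with Sp5 at 4.24 ± 0.85 and 5.79 ± 0.85. Sp5 read 815, 488 and 1269 in the first of these groups and 1046, 2150 and 5833 in the second, so unlike Evx1 it stood higher in the second. With BMP4 in WT cells 1 rose, Sp8, by 1.12 ± 0.27 (adjusted p = 0.0338). None passed with WNT3A in WT cells, where 8 had an unadjusted p under 0.05, or with BMP4 in KO cells, where 3 had one.

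Genes of the primitive streak and nascent mesoderm, among which Evx1 is expressed in the embryo, had 22 tested members. Between genotypes with BMP4 10 were lower in KO and none higher, with a median of -1.36. Fgf8, a growth factor of the streak, was lower by -3.28 ± 0.49 (adjusted p = 0.000808), and Wnt3, the deleted gene itself and 1 of the 10, by -1.45 ± 0.41 (adjusted p = 0.0436). Without cytokine the list's median was -0.46 and none passed by limma, with 7 at an unadjusted p under 0.05, among which Nkx1-2 differed by -3.29 ± 0.71. In the BMP4 response of KO less WT none passed and 3 had an unadjusted p under 0.05, with Fgf8 at -2.06 ± 0.69 (adjusted p = 0.632), so these genotype differences with BMP4 are not shown to be differences in the response to it. In the KO arrays titled WNT3A 6 rose, led by Wnt8a, Nkx1-2 (3.11 ± 0.71) and Fst (2.89 ± 0.63), and in those titled BMP4+WNT3A 7 rose, led by Nkx1-2 (5.75 ± 0.71), Wnt8a (5.02 ± 0.60) and Fst (4.35 ± 0.63). None passed in WT cells with BMP4, with a median of 0.92, or with WNT3A, with a median of 1.11. In each, 10 had an unadjusted p under 0.05, which is not shown to exceed the share of all genes at that cut. With BMP4 in KO cells 1 rose, Tdgf1, by 1.17 ± 0.24 (adjusted p = 0.0402). The 4 lists and Evx2 together hold 59 tested genes, with Cdx1, Wnt8a and Hand1, which each stand in more than 1 list, counted once. Of these 59 genes, 11 passed with BMP4 in WT cells, 0 with WNT3A in WT cells, 8 with BMP4 in KO cells, 18 in the arrays titled WNT3A, 16 in those titled BMP4+WNT3A and 19 between genotypes with BMP4. Without the 24 h arrays these counts were 4, 0, 0, 7, 0 and 0, and without the 36 h arrays BMP4 and WNT3A in WT cells gave 17 and 11. The share of all genes called in those fits is not given here, so these changes are not shown to be particular to the lists.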

How the data were processed

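Expression was measured on 23 arrays, 1 for each genotype, condition and time. The deposited table holds 1 linear intensity for each of 45101 probe sets and array, with a floor at 1. The method behind the authors' intensity values is not given in these sources. Per the labels, cDNA was amplified from the RNA before it was labelled. Probe sets naming 1 gene (34958) were used, and the one with the highest mean stood for a gene. Upper quartiles of the arrays spread by 0.37 log2, so log2(signal + 16) was quantile normalized.

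Differences came from limma 3.58.1 under R 4.3.3, with 21 arrays, 7 conditions, time as an additive block, 12 residual degrees of freedom and a trend in the prior variance. Nothing says that the times came from separate cultures, so p-values measure only the spread between these arrays. The members and gene lists were chosen with earlier results of these data known. Genes named are the pair, the 10 most and 5 least like Evx1 and the 10 most like Evx1os by Pearson's r, the 5 antisense pairs of highest r, and of each list the 3 passing genes of largest difference besides Axin2, Sp5, Fgf8, Id1, Msx1 and Wnt3. Hox genes, Evx2, the markers and Pcdh7 are given as members of lists or nearest genes.

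Alternatives were median centring or no scaling, an offset of 64 or 1, a filter at percentile 60 or none, array weights, leaving out each time, and exchanging or leaving out the 6 KO arrays. Added after seeing the data were a fit without the 3 arrays of highest Gapdh ratio and correlations within sets of conditions or with condition and time taken off. Sequences and promoter coordinates are from RefSeq (GRCm38.p6), where both members matched, and gene order is from its gene table. Figures were drawn with matplotlib 3.10.9.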

Additional observations from a re-analysis of the deposited data

How the results depend on the processing

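Of the 8 differences given for each member, BMP4 in KO, which lay near 0, changed sign under some alternatives and the others kept theirs. An offset of 1 gave Evx1 5.66 and Evx1os 5.05 in the KO arrays titled WNT3A and -5.15 for Evx1 in the BMP4 response of KO less WT; an offset of 64 gave 3.64, 2.31 and -3.86, and 3.86 for Evx1 with BMP4 in WT. With the labels of the 6 KO arrays exchanged, Evx1 and Evx1os gave 2.68 and 1.5 for WNT3A and 4.84 and 3.65 for both cytokines. With BMP4 in KO, Evx1 gave -0.15 with array weights, and Evx1 gave 0.18 and Evx1os 0.14 with the 3 arrays of highest Gapdh ratio left out. The correlation of the pair was 0.854 with condition and time taken off, 0.975 over the 12 arrays of WT with BMP4 or WNT3A and the 2 KO groups of conflicting labels, and 0.963 (rho 0.564) over the 11 others. Evx1os stayed the gene most like Evx1 under the 6 alternatives run.

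Of the 59 list genes, 11 passed with BMP4 in WT, with 7 when 12 h was left out, 4 when 24 h was, 17 when 36 h was and 7 when the 6 KO arrays were. WNT3A in WT, with 0, gave 1 with an offset of 1, 11 without 36 h and 2 with those 3 arrays left out. BMP4 in KO, with 8, gave 5 without 12 h, without the 6 KO arrays, with no filter and with those 3 arrays left out, and 0 without 24 h. Without 24 h the arrays titled WNT3A gave 7 and those titled BMP4+WNT3A and the genotypes with BMP4 gave 0. Leaving out a time also leaves fewer arrays in the fit, and otherwise the cause was not tested. Shares of all genes called under these alternatives are not given here, so the changes are not shown to be particular to the list genes. Time was a block in every fit, so conditions were compared within times. By replicate number, no paired analysis was possible because no group has a replicate. Each member has 1 probe set, so the alternative of single probe sets was not run.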
